A study of Mus musculus with 16 samples.

Results

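A set of 10 genes of cell adhesion and the cytoskeleton were followed while mouse embryonic stem cells left naive pluripotency. They are the cadherins Cdh1, Cdh2 and Cdh3, the adhesion molecule Epcam, the claudins Cldn4, Cldn6 and Cldn7, and the intermediate filament genes Krt8, Krt18 and Vim. The genes were picked out by symbol, and each matched 1 row of the 27179 genes in the table. All 10 genes passed the filter on low counts that left 14288 genes for testing. The study sequenced polyadenylated RNA of mouse embryonic stem cells (mESC, kept as undifferentiated cells in culture) in 16 libraries, 2 for each of 8 groups. The question was how cells from 2 maintenance media change after withdrawal of the factors that hold them in the naive state.

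Both media held LIF (leukaemia inhibitory factor) and 2i, which stands for 2 kinase inhibitors, 3 uM CHIR99021 against GSK3 and 1 uM PD0325901 against MEK. In 2i/LIF medium the base was serum-free, with N-2 and B-27 supplements, whereas serum/LIF+2i medium was built on 10% fetal bovine serum. All cells came from serum/LIF culture, were adapted to their medium over 3 passages and were used for at most 9. The control libraries of each medium were taken at 0 h, and the others 12, 24 or 40 h after a change to serum-free medium lacking 2i and LIF. Cells kept in 2i/LIF and their descendants are called the 2i/LIF arm, and those kept in serum/LIF+2i the serum arm. The exit medium was not the same for both: for the former it was their own maintenance base, and for the latter a base of glutamine-free DMEM and Neurobasal with 2 mM glutamine added back and the same supplements. Plates were coated with gelatin, and the glutamine concentration was listed as 2 mM for every library of both arms. A difference between media after release therefore cannot be told apart from that difference in base medium. The protocol text gives only the 24 and 40 h times for the serum arm, while sample titles give 12 h for both media, and the titles were used. The labels name no cell line and do not say whether the 2 libraries of a group came from separate cultures, so p-values measure the spread between these libraries, which may be technical.

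In the GENCODE annotation of GRCm38, the same assembly as the mm10 build named in the submitters' processing notes, Cdh3 (chr8:106510891-106557297) and Cdh1 (chr8:106603351-106670246) lie on the same strand, 46053 bases apart. Krt8 (chr15:101996698-102004482, minus strand) and Krt18 (chr15:102028180-102032027, plus strand) lie on opposite strands with 23697 bases between them. The other genes stand apart from each other: Epcam at chr17:87635979-87651129, Cldn6 at chr17:23679249-23682446, Cldn4 at chr5:134945119-134946934, Cldn7 at chr11:69964779-69967885 and Vim at chr2:13573927-13582826. Cdh2 is on chromosome 18. Counts are for whole genes, so no exon or isoform is resolved. Krt8 has a processed pseudogene, Krt8-ps, that matches its transcript over 941 bases at 98.6% identity and is not a row of the table, so reads of Krt8 could have been lost to or gained from it. Krt8 and Cdh2 each overlap a non-coding gene on the opposite strand, and whether counting used the strand is not given in the sources used here.

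Cadherins are calcium-dependent adhesion proteins of the adherens junction, whose cytoplasmic tails bind catenins and through them the actin cytoskeleton. E-cadherin, the product of Cdh1, holds embryonic stem cell colonies together, while N-cadherin (Cdh2) is typical of mesenchymal and neural cells and P-cadherin (Cdh3) of basal epithelia and placenta. Claudins seal or form pores in tight junctions, and EpCAM is an epithelial membrane protein that binds claudin-7. Keratin 8 and keratin 18 pair to form the filaments of simple epithelia, whereas vimentin forms those of mesenchymal cells. After implantation in the embryo the naive epiblast becomes a polarised epithelium, and embryonic stem cells leaving the naive state pass through a comparable formative stage. The loss of Cdh1, Epcam, claudins and keratins with a gain of Cdh2 and Vim is the usual description of an epithelial to mesenchymal transition.

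Promoter sequence is shown because genes that rose and a gene that fell after release share a short motif in it. RefSeq promoters (GRCm38.p6, the 250 bases before each annotated start) were used for 6 of the 10 genes, namely Epcam, Cldn4, Cldn6, Cldn7, Krt18 and Vim, and those of the others were not analysed here. The E2-box CACCTG, the sequence recognised by repressors of the ZEB and SNAI families, was searched on both strands (CAGGTG is the same site read on the other strand). It occurred in 5 of these 6 genes, all but Vim, and in 17.2% of all 32851 RefSeq promoters of that length. By window rather than by gene it was in 5 of 7, since Cldn7 has 2 RefSeq starts: the window just before its GENCODE start (chr11:69964529-69964778) had 0 matches, and the other had both of its matches. The boxes of Cldn6 and Cldn7 lie inside the GENCODE coordinates of those genes given above. The whole window of Vim (chr2:13574061-13574310) also lies inside its gene, so its matches are not for sequence before its GENCODE start. The motif was chosen after these sequences had been seen, so its share among the genes is a description. The stretches below are written 5′ to 3′ on the strand of the gene, with the E2-box in capitals. They are chr17:87635729-87635978 (plus) for Epcam, chr5:134946935-134947184 (minus) for Cldn4 and chr15:102027966-102028179 (plus) for Krt18.
Epcam: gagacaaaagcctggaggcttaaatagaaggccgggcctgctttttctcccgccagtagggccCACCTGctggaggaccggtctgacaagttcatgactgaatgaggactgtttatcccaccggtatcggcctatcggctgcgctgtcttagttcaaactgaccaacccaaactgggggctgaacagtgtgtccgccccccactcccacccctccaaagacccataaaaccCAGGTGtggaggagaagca
Cldn4: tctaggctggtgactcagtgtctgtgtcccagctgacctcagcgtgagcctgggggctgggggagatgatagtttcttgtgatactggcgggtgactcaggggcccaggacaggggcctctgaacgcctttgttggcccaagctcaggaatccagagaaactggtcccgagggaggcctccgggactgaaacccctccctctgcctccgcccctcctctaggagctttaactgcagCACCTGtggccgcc
Krt18: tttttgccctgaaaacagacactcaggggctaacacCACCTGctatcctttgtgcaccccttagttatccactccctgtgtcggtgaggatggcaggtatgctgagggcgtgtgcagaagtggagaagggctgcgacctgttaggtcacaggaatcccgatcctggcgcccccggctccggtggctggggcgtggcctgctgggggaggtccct

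The same box in Cldn6 and Cldn7 is shown with 12 bases on either side, at chr17:23679260-23679289 (plus) for Cldn6 and at chr11:69965312-69965341 and chr11:69965352-69965381 (plus) for Cldn7. The first base of the box lay 93 bases before the RefSeq start of Cldn6, and 97 and 57 before a start of Cldn7.
Cldn6: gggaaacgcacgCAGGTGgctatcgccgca
Cldn7, first site: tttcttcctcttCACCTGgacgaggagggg
Cldn7, second site: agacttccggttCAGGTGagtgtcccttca
Of the other 6 motifs searched, the AP-1 site TGACTCA occurred in Cldn4 alone, with 2 matches, against 4.46% of all promoters. The cyclic AMP response element TGACGTCA occurred in Cldn6 and Cldn7, against 1.55% of promoters, and its letters do not overlap the E2-box search. A TATAAA box was found in Vim (12.4% of promoters) and the STAT motif TTCNNNGAA in Cldn7 (7.02%). The Grainyhead motif AACCGGTT (0.116% of promoters) and the TCF/LEF motif CTTTGAT (3.21%) had 0 matches in these windows.

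Libraries held 5931381 to 11142744 counts in genes and detected 16393 to 18392 genes. At this depth 3 counts correspond to 0.259 to 0.517 CPM (counts scaled to library size by trimmed means), and intervals and floors of this kind cover counting error only. The 2 libraries of a group correlated at 0.991 to 0.995 in log2 CPM, and no 2 libraries were identical. Naive and general pluripotency markers (7 genes) summed to 5411 to 5835 CPM at 0 h and to 914 to 931 CPM at 40 h, and 6 of the 7 fell in each arm. The 6 formative epiblast markers summed to 222 to 238 CPM at 0 h and to 2990 to 4083 CPM at 40 h, and all 6 rose in each arm. Over all libraries, 9 fibroblast or feeder genes summed to 4.41 to 23.9 CPM and 7 trophectoderm genes to 6.39 to 45.3 CPM. The sums were 2.94 to 16.7 CPM for 8 primitive endoderm genes and 0.664 to 36.0 CPM for 7 primitive streak genes. These sums overlap the levels of Cdh2, Cldn7, Krt8 and Krt18 given below, and their part in those levels was not tested. Trophectoderm sums were 26.4 to 45.3 CPM at 0 h and 6.39 to 7.65 CPM at 40 h over both arms. Primitive streak sums were 16.7 to 36.0 CPM and 1.49 to 2.52 CPM at these times. Those of primitive endoderm were 6.23 to 6.90 CPM and 11.3 to 16.7 CPM. The 6 neural markers summed to 33.5 to 51.9 CPM at 0 h and 105.7 to 137 CPM at 40 h, and all 5 that were tested rose in each arm.

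**Figure D1:**
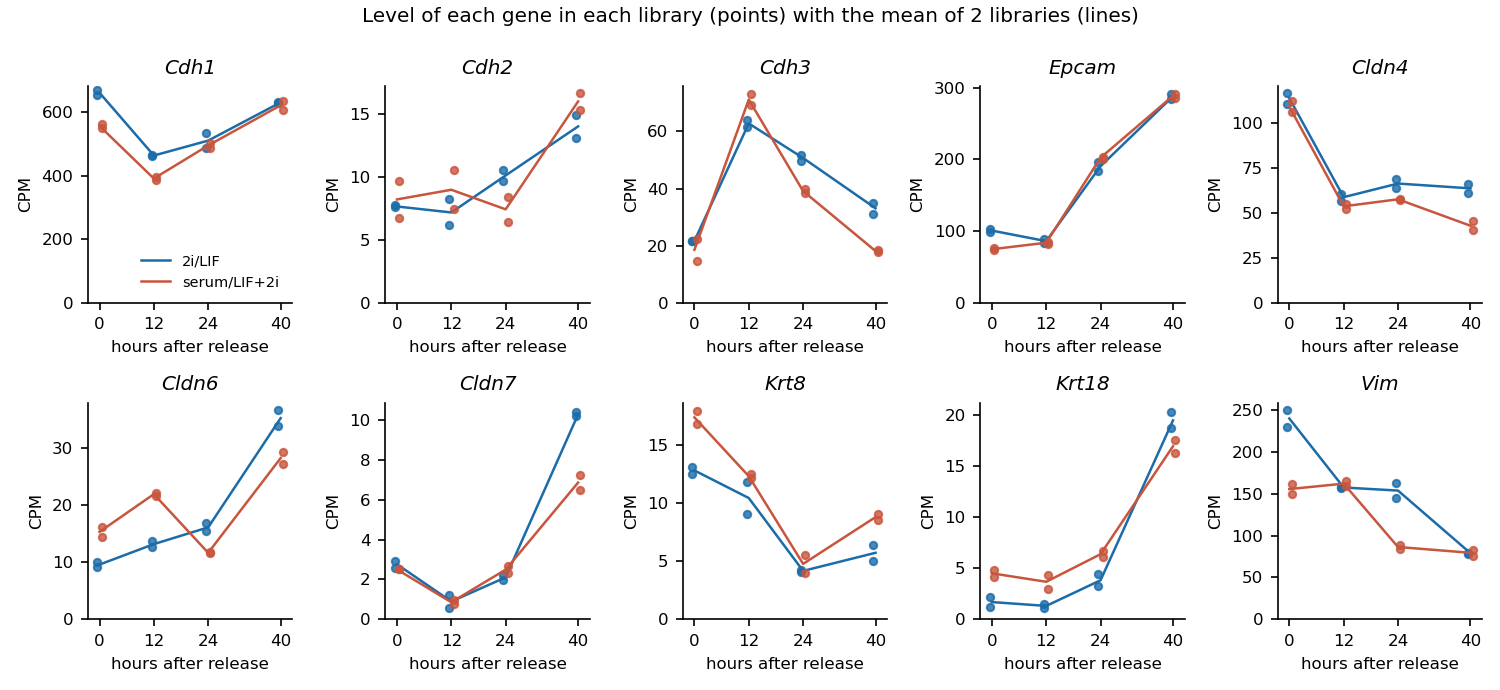
Level of each of the 10 genes in CPM (vertical axes, from 0) against hours after release from the maintenance medium (horizontal axes). Points are single libraries, lines join the means of 2 libraries, blue is 2i/LIF and red serum/LIF+2i. Cdh1 dips at 12 h and returns by 40 h, Cdh3 peaks at 12 h, Epcam, Cldn6, Cldn7 and Krt18 end highest at 40 h, and Cldn4, Krt8 and Vim end below their 0 h levels.

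Over the 40 h after release, both the genes typical of epithelia and those typical of mesenchyme moved in more than 1 direction. Epcam, Cldn6, Cldn7, Krt18 and Cdh2 rose in both arms. Cldn4, Krt8 and Vim fell in both arms. Cdh1 lost part of its level by 12 h and regained it, and Cdh3 peaked at 12 h. In these bulk libraries, fewer cells of a type and less RNA per cell cannot be told apart.

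Counts were tested with edgeR's quasi-likelihood test on all 14288 genes, with Benjamini-Hochberg adjustment, and called means an adjusted p below 0.05. At 12 h in the 2i/LIF arm, 7 of the 10 genes were called, against 44.7% of all genes tested, with 2 higher (21% of all genes) and 5 lower (23.7%). At 24 h the count was 8, against 58.8%, with 4 higher (29.2%) and 4 lower (29.6%). At 40 h it was 9, against 68.8%, with 6 higher (34.1%) and 3 lower (34.7%). The serum arm had 7 at 12 h, against 51.2%, with 3 higher (25.3%) and 4 lower (25.9%). Its count at 24 h was 7, against 64.4%, with 2 higher (32.4%) and 5 lower (32%), and at 40 h 9, against 70.5%, with 6 higher (35.3%) and 3 lower (35.3%). Between successive times, 7 genes were called from 12 to 24 h (35.1% of all genes) and 8 from 24 to 40 h (46.7%) in the 2i/LIF arm, and 8 (48.4%) and 9 (50.5%) in the serum arm. The 7 became 4 without replicate 2 of the 2i/LIF arm at 24 h. Most of the genes tested were called by 40 h, so being called says little about these 10, and size and direction say more. The median absolute log2 change of the 10 genes at 40 h was 1.34 in the 2i/LIF arm, against 0.53 over all genes tested, and 0.98 in the serum arm, against 0.50. Since the genes were chosen with earlier results of these data known, this contrast is a description. The comparisons within a medium share their 0 h libraries. The counts at 40 h were 9 in each arm whichever of the 16 libraries was left out.

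**Figure D2:**
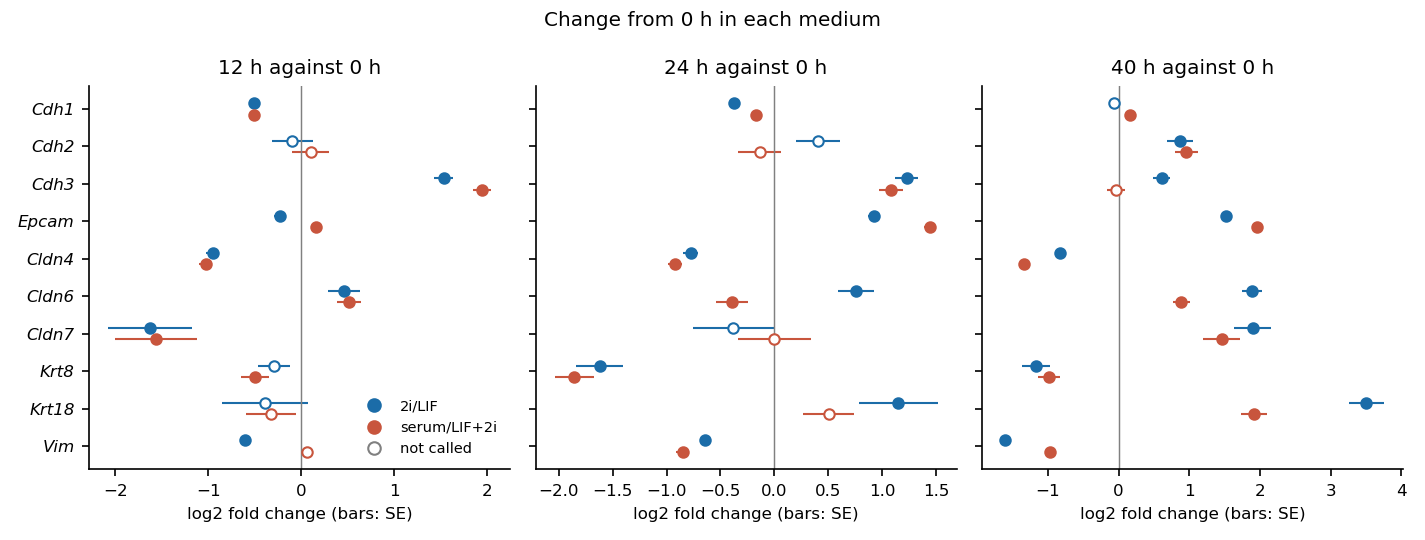
Log2 fold change of each gene against 0 h of the same medium (horizontal axes) at 12, 24 and 40 h (panels), with bars of 1 standard error. Blue is 2i/LIF and red serum/LIF+2i; open points did not pass an adjusted p of 0.05. At 40 h, Krt18 from 2i/LIF has the largest rise (3.51), and Vim from 2i/LIF the largest fall (-1.61) of the genes shown.

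Cdh1 dipped at 12 h in both arms and then recovered. In the 2i/LIF arm its 0 h libraries had 669 and 655 CPM, falling to 464 and 464 CPM at 12 h, with 489 and 534 CPM at 24 h and 630.3 and 633 CPM at 40 h. Its values in the serum arm were 551 and 563 CPM at 0 h, 387 and 396 CPM at 12 h, 502 and 489 CPM at 24 h, and 636 and 609 CPM at 40 h. All 4 libraries at 12 h lay below all 12 others. The log2 change to 12 h was -0.51 ± 0.04 in both arms (SE; edgeR adjusted p 1.3e-24 in the 2i/LIF arm and 2.5e-24 in the serum arm). Cdh1 rose again from 24 to 40 h, by 0.31 ± 0.04 on the log2 scale in the 2i/LIF arm (adjusted p 3e-12) and by 0.33 ± 0.04 in the serum arm (adjusted p 3.4e-14). At 40 h it was back near its start: the change from 0 h was -0.07 ± 0.04 in the 2i/LIF arm, which did not pass the test (adjusted p 0.093) and was 0.000149 with scaling by library size alone. Cdh1 in the serum arm ended higher than at 0 h, by 0.16 ± 0.04 (adjusted p 5e-05). In order of level, the 2i/LIF arm at 0 h was first and the serum arm at 12 h last, and the 40 h groups overlapped each other, as did the 24 h groups.

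Cdh3 ran opposite to Cdh1. Cdh3 in the 2i/LIF arm had 21.5 and 21.7 CPM at 0 h, 64.0 and 61.6 CPM at 12 h, 49.6 and 51.8 CPM at 24 h, and 31.1 and 35.1 CPM at 40 h. Cdh3 in the serum arm had 14.7 and 22.3 CPM at 0 h, 69.3 and 73.0 CPM at 12 h, 38.5 and 39.7 CPM at 24 h, and 18.5 and 17.6 CPM at 40 h. The 12 h libraries were the highest in each arm, and the serum-arm libraries at 40 h lay within the range of their own 0 h libraries. The rise to 12 h was 2.90-fold in the 2i/LIF arm (log2 1.54 ± 0.10, edgeR adjusted p 6.5e-27) and 3.85-fold in the serum arm (log2 1.95 ± 0.10, adjusted p 2.6e-36). Cdh3 then fell at both later steps in both arms, by 0.31 and 0.62 on the log2 scale in the 2i/LIF arm (adjusted p 0.0018 and 1.6e-08) and by 0.87 and 1.11 in the serum arm (adjusted p 4.6e-18 and 5.3e-19). At 40 h it was still higher than at 0 h in the 2i/LIF arm, with a log2 change of 0.61 ± 0.12 (adjusted p 2.2e-06). The 40 h change of the serum arm was -0.03 ± 0.13 (adjusted p 0.83). That value rests on the spread of the 0 h libraries: it was 0.30 (adjusted p 0.099) without replicate 2 of the serum arm at 0 h and -0.31 at the other end of the leave-one-out range.

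Cdh2 was low and was highest at 40 h in both arms. Its libraries had 7.58 and 7.75 CPM at 0 h, 8.22 and 6.15 CPM at 12 h, 10.6 and 9.73 CPM at 24 h, and 13.2 and 14.9 CPM at 40 h in the 2i/LIF arm. The serum arm had 9.70 and 6.76 CPM, 10.5 and 7.45 CPM, 6.42 and 8.46 CPM, and 15.3 and 16.7 CPM at the same times. Only the 40 h libraries lay above all others, and the 6 earlier groups overlapped in a chain from the 2i/LIF arm at 24 h to the 2i/LIF arm at 12 h. The 40 h rise was 1.83-fold in the 2i/LIF arm (log2 0.87 ± 0.19, edgeR adjusted p 2.6e-05) and 1.94-fold in the serum arm (log2 0.96 ± 0.17, adjusted p 2.1e-07). Neither the 12 h nor the 24 h change from 0 h passed the test in either arm. The steps from 12 to 24 h and from 24 to 40 h were 0.50 ± 0.20 and 0.46 ± 0.17 in the 2i/LIF arm (adjusted p 0.042 and 0.02). Both calls were lost with DESeq2 (adjusted p 0.16 and 0.11) and without several single libraries. In the serum arm these steps were -0.24 ± 0.19 (edgeR adjusted p 0.29) and 1.10 ± 0.16 (adjusted p 1.3e-09), so the rise there came in the last step. The summed level of the neural markers, whose lineage expresses Cdh2, was also highest at 40 h in each arm, although Pax6 alone was higher at 24 h than at 40 h in both, and their part in the rise was not tested.

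Per kilobase of gene length, which allows genes to be compared, Cdh1 made up most of the summed CPM of these 3 cadherins at all times. Its share was 95.5% ± 0.101 (SD, n = 2) at 0 h in the 2i/LIF arm, 85.9% ± 0.526 at 12 h and 92.7% ± 0.569 at 40 h. For the serum arm the share at 0 h was 95.2% ± 0.582, at 12 h 81.8% ± 0.0999 and at 40 h 94.6% ± 0.187. Cdh3 was the larger of the other two at 12 h, when it held 12.8% ± 0.275 in the 2i/LIF arm and 16.4% ± 0.360 in the serum arm. Cdh2 never held more than 2.47% of the sum in a library, at 40 h in the serum arm. The ratio of Cdh2 to Cdh1 per kilobase was 0.0110 ± 0.000337 at 0 h and 0.0211 ± 0.00185 at 40 h in the 2i/LIF arm. It was 0.0141 ± 0.00375 and 0.0245 ± 0.00226 in the serum arm, with no overlap between the 2 times in either arm. At 12 and 24 h the ratio was 0.0147 ± 0.00301 and 0.0189 ± 0.00226 in the 2i/LIF arm. For the serum arm it was 0.0219 ± 0.00565 and 0.0143 ± 0.00304. The 24 h range of the 2i/LIF arm and the 12 h range of the serum arm overlapped those at 40 h. Ratios and shares are given without a test, since 2 libraries against 2 cannot reach an exact permutation p below 0.333.

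**Figure D3:**
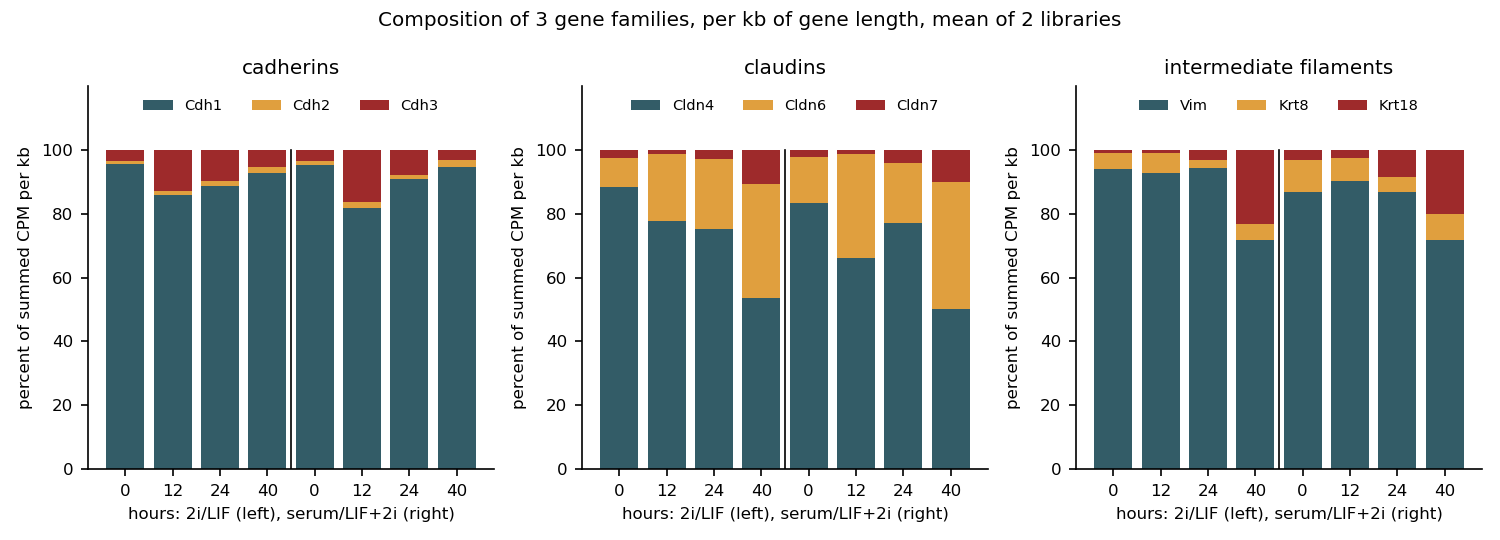
Share of each gene (vertical axes, percent of summed CPM per kilobase, mean of 2 libraries) within the cadherins, claudins and intermediate filament genes, by hours after release from 2i/LIF (left of the line) and serum/LIF+2i (right). Cdh3 takes 12.8% and 16.4% at 12 h, Cldn4 drops to 53.5% and 50.1% of the claudins at 40 h, and Krt18 reaches 23.1% and 20.1% of the filament genes.

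Epcam rose steeply after 12 h in both arms. Libraries of the 2i/LIF arm had 103 and 98.1 CPM at 0 h, 82.6 and 88.8 CPM at 12 h, 196 and 184 CPM at 24 h, and 284 and 291 CPM at 40 h. Serum-arm libraries had 76.1 and 72.7 CPM, 84.6 and 82.4 CPM, 201 and 203 CPM, and 291 and 286 CPM. At 40 h the 2 arms overlapped, although at 0 h the 2i/LIF libraries were the higher. The 40 h rise was 2.87-fold in the 2i/LIF arm (log2 1.52 ± 0.05, edgeR adjusted p 1.1e-54) and 3.88-fold in the serum arm (log2 1.95 ± 0.05, adjusted p 1.4e-65). At 12 h the sign differed between arms: Epcam fell by 0.23 on the log2 scale in the 2i/LIF arm (adjusted p 0.001) and was higher by 0.16 ± 0.06 in the serum arm (adjusted p 0.019). The call in the serum arm was lost with DESeq2 (adjusted p 0.053), without replicate 2 of the serum arm at 0 h (0.14, adjusted p 0.14) and without replicate 1 at 12 h (0.16, adjusted p 0.074). The step from 12 to 24 h carried most of the rise, with a log2 change of 1.15 ± 0.05 in the 2i/LIF arm (adjusted p 1.3e-39) and 1.28 ± 0.05 in the serum arm (adjusted p 1.5e-46).

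The 3 claudins took different courses. Cldn4, a sealing claudin of many simple epithelia, fell early and stayed down. Levels in the 2i/LIF arm were 116 and 111 CPM at 0 h, 60.6 and 56.6 CPM at 12 h, 68.6 and 63.7 CPM at 24 h, and 65.8 and 61.1 CPM at 40 h. Levels in the serum arm were 112 and 106 CPM, 55.0 and 51.9 CPM, 57.2 and 57.6 CPM, and 45.3 and 40.1 CPM. The 4 libraries at 0 h lay above the 12 later ones. By 12 h the log2 change was -0.95 ± 0.07 in the 2i/LIF arm (edgeR adjusted p 1.4e-24) and -1.03 ± 0.07 in the serum arm (adjusted p 1.3e-27). From 24 to 40 h Cldn4 fell again in the serum arm, by 0.42 on the log2 scale (adjusted p 2.6e-07), while the step was -0.06 ± 0.07 in the 2i/LIF arm (adjusted p 0.53).

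Cldn6, a claudin known from early embryonic epithelia, ended higher in both arms by different paths. Cldn6 in the 2i/LIF arm had 9.995 and 9.11 CPM at 0 h, 13.7 and 12.6 CPM at 12 h, 16.8 and 15.3 CPM at 24 h, and 36.6 and 33.8 CPM at 40 h. Cldn6 in the serum arm had 14.4 and 16.2 CPM, 22.2 and 21.6 CPM, 11.5 and 11.7 CPM, and 29.2 and 27.2 CPM. Each 2i/LIF time lay above the one before, while the serum-arm libraries at 24 h lay below all others of that medium. The step from 12 to 24 h was a fall of 0.91 on the log2 scale in the serum arm (edgeR adjusted p 1e-09) and a change of 0.29 ± 0.15 in the 2i/LIF arm (adjusted p 0.11). At 40 h the rise over 0 h was 3.69-fold in the 2i/LIF arm (log2 1.89 ± 0.14, adjusted p 6.2e-25) and 1.85-fold in the serum arm (log2 0.89 ± 0.12, adjusted p 8.1e-11). At 24 h in the serum arm it stood 0.40 below 0 h on the log2 scale (-0.40 ± 0.15, adjusted p 0.014). That call was lost with DESeq2 (adjusted p 0.063), without replicate 2 of the serum arm at 0 h (-0.30, adjusted p 0.17) and without its replicate 1 at 24 h (-0.38, adjusted p 0.054).

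Cldn7, the claudin that EpCAM binds, dipped before it rose. In the 2i/LIF arm it had 2.93 and 2.58 CPM at 0 h, 1.23 and 0.535 CPM at 12 h, 2.22 and 1.98 CPM at 24 h, and 10.4 and 10.2 CPM at 40 h. The serum arm gave Cldn7 levels of 2.50 and 2.50 CPM, 0.946 and 0.745 CPM, 2.32 and 2.65 CPM, and 7.24 and 6.48 CPM. The 12 h values rest on 4 to 9 counts per library, the smallest in the set. All 12 h libraries lay below all others, with a log2 change of -1.62 ± 0.45 in the 2i/LIF arm (edgeR adjusted p 0.0016), which was -1.14 (adjusted p 0.072) without replicate 2 at 12 h, and -1.56 ± 0.44 in the serum arm (adjusted p 0.0017). The rise at 40 h was 3.73-fold in the 2i/LIF arm (log2 1.90 ± 0.26, adjusted p 1.6e-10) and 2.74-fold in the serum arm (log2 1.46 ± 0.27, adjusted p 7.8e-07). Per kilobase, Cldn4 held 88.4% ± 0.348 of the summed level of the 3 claudins at 0 h and 53.5% ± 0.147 at 40 h in the 2i/LIF arm, and 83.5% ± 1.49 and 50.1% ± 0.779 in the serum arm. Cldn6 held 35.7% ± 0.228 and 39.9% ± 0.840 at 40 h in the 2 arms, and Cldn7 10.8% ± 0.375 and 10.0% ± 0.0616. The summed level at 40 h was 65.5 ± 3.18 CPM per kilobase in the 2i/LIF arm, where it had been 70.9 ± 2.89 at 0 h, and 47.0 ± 3.37 in the serum arm, where it had been 71.9 ± 1.48.

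The keratin partners separated. Krt18 had 1.21 and 2.13 CPM at 0 h, 1.51 and 1.07 CPM at 12 h, 3.19 and 4.41 CPM at 24 h, and 18.7 and 20.2 CPM at 40 h in the 2i/LIF arm. Krt18 in the serum arm had 4.11 and 4.85 CPM, 4.33 and 2.98 CPM, 6.08 and 6.62 CPM, and 17.6 and 16.3 CPM. The 40 h libraries of both arms stood above all others, and the early 2i/LIF libraries, at 7 to 14 counts each, stood below all others. The 40 h rise was 11.4-fold in the 2i/LIF arm (log2 3.51 ± 0.25, edgeR adjusted p 4.1e-26), the largest of the 10 genes, and 3.77-fold in the serum arm (log2 1.92 ± 0.19, adjusted p 5.3e-17). At 24 h the rise in the 2i/LIF arm was 1.15 ± 0.37 on the log2 scale (adjusted p 0.0047), but it was 0.82 (adjusted p 0.098) without replicate 1 at 0 h and 0.91 (adjusted p 0.080) without replicate 2 at 24 h.

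Krt8 fell over the same period. In the 2i/LIF arm it had 13.1 and 12.5 CPM at 0 h, 9.04 and 11.8 CPM at 12 h, 4.03 and 4.26 CPM at 24 h, and 5.01 and 6.39 CPM at 40 h. Krt8 in the serum arm had 16.7 and 17.9 CPM, 12.4 and 12.1 CPM, 3.98 and 5.50 CPM, and 8.53 and 9.0 CPM. The 24 h libraries were the lowest of each arm. The fall to 24 h was 1.62 on the log2 scale in the 2i/LIF arm (-1.62 ± 0.22, edgeR adjusted p 1.4e-10) and 1.86 in the serum arm (-1.86 ± 0.18, adjusted p 2.9e-17). From 24 to 40 h Krt8 rose by 0.87 ± 0.19 in the serum arm (adjusted p 4.9e-05), and that step was 0.45 ± 0.25 in the 2i/LIF arm (adjusted p 0.13). At 40 h it remained below 0 h by 1.17 in the 2i/LIF arm (-1.17 ± 0.20, adjusted p 1.3e-07) and 0.98 in the serum arm (-0.98 ± 0.15, adjusted p 1e-08). Per kilobase, the ratio of Krt18 to Krt8 was 0.169 ± 0.0717 (SD, n = 2) at 0 h and 4.44 ± 0.506 at 40 h in the 2i/LIF arm. That ratio in the serum arm was 0.333 ± 0.0227 at 0 h and 2.49 ± 0.232 at 40 h. On that scale Krt8 was the more abundant keratin in every library at 0 and 12 h and Krt18 in every library at 24 and 40 h. The order at 24 h in the 2i/LIF arm rests on the length scaling: in replicate 1 the ratio was 1.02 per kilobase and 0.793 without it. These ratios share the limit on Krt8 counts that its pseudogene sets, which was not tested.

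**Figure D4:**
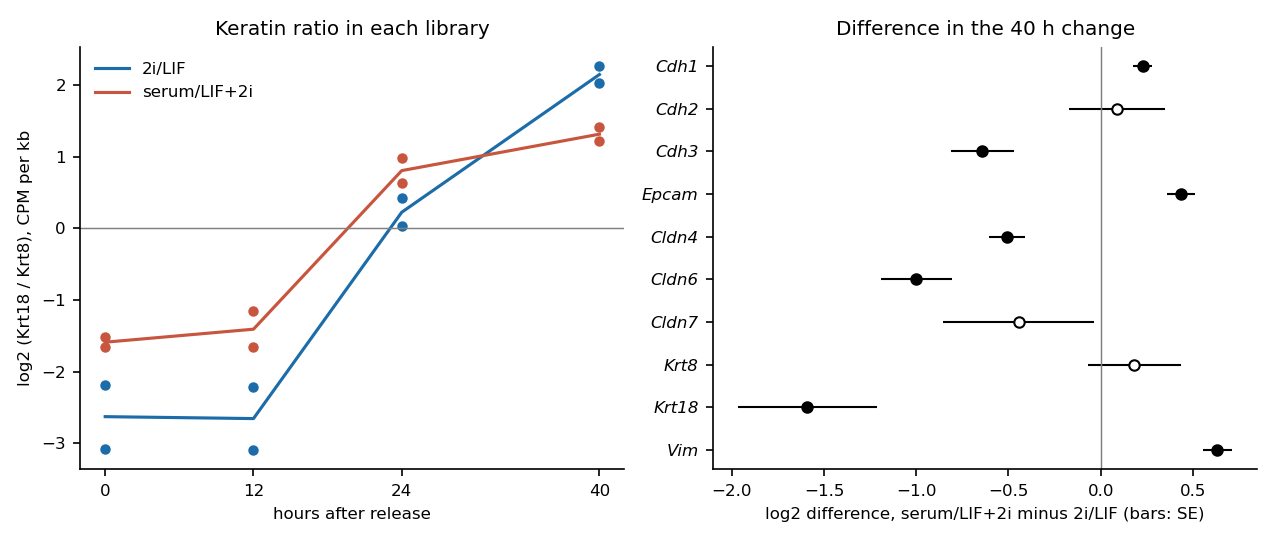
Left, log2 of the ratio of Krt18 to Krt8 in CPM per kilobase (vertical axis) for each library (points) and the mean of 2 (lines) against hours after release; the log2 ratio is below 0 in all 8 libraries up to 12 h and above 0 in all 8 from 24 h. Right, the 40 h change in serum/LIF+2i minus that in 2i/LIF for each gene (horizontal axis, log2, bars of 1 standard error, open points not past an adjusted p of 0.05), from -1.59 for Krt18 to 0.63 for Vim.

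Vim, the mesenchymal filament gene, was lower at 40 h than at 0 h in both arms, where Cdh2 was higher. In the 2i/LIF arm it had 229.9 and 251 CPM at 0 h, 157 and 159 CPM at 12 h, 163 and 145 CPM at 24 h, and 79.8 and 78.1 CPM at 40 h. Vim in the serum arm had 162 and 149.8 CPM, 165 and 159.6 CPM, 88.8 and 84.0 CPM, and 75.9 and 82.9 CPM. The 2i/LIF libraries at 0 h were the highest of all, and the 40 h libraries of the 2 arms overlapped at the bottom. In the 2i/LIF arm the fall came in 2 steps, 0.61 on the log2 scale by 12 h (-0.61 ± 0.05, edgeR adjusted p 4.4e-20) and 0.97 from 24 to 40 h (-0.97 ± 0.06, adjusted p 4.2e-29), with -0.03 ± 0.05 between them (adjusted p 0.69). Serum-arm Vim fell in 1 step, from 12 to 24 h (-0.91 ± 0.05, adjusted p 7.7e-30), with 0.06 ± 0.05 before it (adjusted p 0.38) and -0.12 ± 0.06 after it (adjusted p 0.073). The whole fall was 3.05-fold in the 2i/LIF arm (log2 -1.61 ± 0.06, adjusted p 1e-50) and 1.96-fold in the serum arm (log2 -0.97 ± 0.06, adjusted p 4e-32). Even so, Vim kept 71.6% ± 1.90 of the summed level per kilobase of the 3 filament genes at 40 h in the 2i/LIF arm, down from 94.1% ± 0.199, and 71.8% ± 1.84 in the serum arm, down from 86.9% ± 1.35. The share of Krt18 went from 0.846% ± 0.283 to 23.1% ± 1.06 in the 2i/LIF arm and from 3.28% ± 0.506 to 20.1% ± 1.85 in the serum arm. The fibroblast or feeder markers summed to 16.4 to 17.4 CPM at 0 h and 16.7 to 23.9 CPM at 40 h in the 2i/LIF arm. The sums in the serum arm were 7.64 to 8.22 CPM and 13.5 to 14.6 CPM. Postn was at 0 in all 8 groups and Lum in 6, while other markers moved in opposite directions. From 0 to 40 h in the 2i/LIF arm, Dcn went from 0 to 11.2 CPM, Thy1 from 0.57 to 5.05 CPM and Pdgfrb from 12.9 to 1.24 CPM. In the serum arm they went from 0 to 4.74 CPM, from 1.32 to 2.99 CPM and from 5.36 to 2.49 CPM. The part of these markers in the level of Vim was not tested.

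Before release, 6 of the 10 genes differed between the maintenance media, against 33% of all genes tested, with 3 higher (14.6%) and 3 lower (18.4%) in the serum arm. Cdh1, Epcam and Vim were lower in the serum arm, by 0.25, 0.43 and 0.63 on the log2 scale (-0.25 ± 0.04, -0.43 ± 0.06 and -0.63 ± 0.05; edgeR adjusted p 1.5e-08, 7.5e-09 and 8.2e-20). Krt18, Cldn6 and Krt8 were higher there. The log2 difference was 1.39 ± 0.35 for Krt18 (adjusted p 0.00081), 0.68 ± 0.17 for Cldn6 (adjusted p 0.0006) and 0.44 ± 0.16 for Krt8 (adjusted p 0.024). The call of Krt8 was lost with DESeq2 (adjusted p 0.16) and without replicate 1 (0.47, adjusted p 0.075) or 2 (0.40, adjusted p 0.15) of the 2i/LIF arm or replicate 2 of the serum arm (0.39, adjusted p 0.14) at 0 h. The summed trophectoderm markers, a lineage that expresses both keratins, were 44.6 to 45.3 CPM in the serum arm and 26.4 to 29.8 CPM in the 2i/LIF arm at 0 h. Single markers went both ways. In the serum and 2i/LIF arms, Tfap2a had 25.6 and 10.7 CPM, Eomes 6.61 and 3.95 CPM and Gata3 3.45 and 0.648 CPM. Cdx2 had 7.93 and 11.1 CPM and Ascl2 1.25 and 1.73 CPM. Elf5 was at 0 in the serum arm and Hand1 in the 2i/LIF arm. The part of these markers in the differences between arms was not tested.

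After release the media differences changed genes and sign. At 12 h, 3 genes were called, against 30.3% of all genes tested: Cdh1 was lower in the serum arm by 0.24 on the log2 scale (-0.24 ± 0.04, edgeR adjusted p 4.9e-08), and Cldn6 and Krt18 were higher by 0.73 ± 0.13 (adjusted p 2.9e-06) and 1.46 ± 0.36 (adjusted p 0.00071). At 24 h, 5 genes were called, against 31.1%, of which Vim (-0.84 ± 0.06, adjusted p 2.1e-25) and Cdh3 (-0.37 ± 0.09, adjusted p 0.00037) kept their calls under all alternatives. The others at 24 h, Cldn4 (-0.21 ± 0.07, adjusted p 0.021), Cldn6 (-0.47 ± 0.14, adjusted p 0.0068) and Krt18 (0.75 ± 0.24, adjusted p 0.012), lost them without replicate 1 of the 2i/LIF arm at 24 h, with -0.15, -0.40 and 0.53, and with DESeq2. Without replicate 1 or 2 of the serum arm at 24 h, Cldn4 had -0.20 and -0.21 (adjusted p 0.082 and 0.074), and without its replicate 2 Krt18 had 0.69 (adjusted p 0.084), also short of the test. At 40 h, 5 genes were called, against 27.3%, and Cdh3 (-0.87 ± 0.11, adjusted p 2.7e-11) and Cldn4 (-0.57 ± 0.07, adjusted p 1.7e-10) were lower in the serum arm under all alternatives. Cldn6 (-0.32 ± 0.10, adjusted p 0.0076), Cldn7 (-0.58 ± 0.19, adjusted p 0.013) and Krt8 (0.62 ± 0.19, adjusted p 0.0093) lost their calls without replicate 1 of the 2i/LIF arm at 40 h, with -0.26, -0.57 and 0.45, and without replicate 2 of the serum arm, with -0.28, -0.51 and 0.58. With DESeq2 their adjusted p was 0.13, 0.22 and 0.075. Cdh1, Epcam, Krt18 and Vim, all called at 0 h, did not pass the test at 40 h, with log2 differences of -0.02 ± 0.04, 0.0036, -0.20 ± 0.13 and 0.0059 (adjusted p 0.72, 0.96, 0.28 and 0.96). The signs for Cdh1, Epcam and Vim flipped under at least 1 alternative. Cldn6 was higher in the serum arm at 0 and 12 h and lower at 24 and 40 h.

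The difference between the exit changes of the 2 arms was tested as an interaction, the serum arm minus the 2i/LIF arm. At 12 h it was called for 2 genes, against 9.2% of all genes tested, Epcam (0.39 ± 0.09, edgeR adjusted p 0.00058) and Vim (0.67 ± 0.07, adjusted p 2.2e-12). At 24 h it was called for 4, against 20.8%, which became 2 without replicate 1 of the 2i/LIF arm at 24 h. It was called at 40 h for 7, against 27.6%, with 3 higher (14.8%) and 4 lower (12.8%). At 40 h the changes of Epcam, Vim and Cdh1 were the more positive in the serum arm, by 0.43 ± 0.08, 0.63 ± 0.08 and 0.23 ± 0.05 (adjusted p 1.4e-06, 1.5e-10 and 0.00024). Those of Krt18, Cldn6, Cldn4 and Cdh3 were the more negative, by 1.59, 1.0, 0.51 and 0.64 (-1.59 ± 0.38, -1.0 ± 0.19, -0.51 ± 0.10 and -0.64 ± 0.17; adjusted p 0.00044, 1.6e-05, 1e-05 and 0.0023). The Cdh3 difference was -0.31 (adjusted p 0.30) without replicate 2 of the serum arm at 0 h. For Cdh2, Cldn7 and Krt8 the interaction at 40 h did not pass the test, with 0.09 ± 0.26, -0.44 ± 0.41 and 0.18 ± 0.25 (adjusted p 0.85, 0.46 and 0.65). Every interaction at 40 h equals the difference between arms at 40 h minus that at 0 h, so it uses the 0 h libraries. Epcam, Krt18, Cdh1, Vim and Cldn6 differed between arms at 0 h, and of these only Cldn6 was called between arms at 40 h. The difference at 0 h and at 40 h was 1.39 and -0.20 for Krt18, and 0.68 and -0.32 for Cldn6. Cldn4 and Cdh3, with -0.06 ± 0.06 (adjusted p 0.51) and -0.23 ± 0.14 (adjusted p 0.20) between arms at 0 h, were lower in the serum arm at 40 h.

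Other junction genes were taken from 8 lists of 110 genes on partners and regulators. The count of each list at 40 h stands beside the shares of all genes tested, of which 34.1% rose and 34.7% fell in the 2i/LIF arm and 35.3% rose and 35.3% fell in the serum arm; no test compares a list with other genes. The scaffold proteins of the adherens junction were mixed: of 14 partners tested, 6 rose and 7 fell at 40 h in the 2i/LIF arm, and 5 rose and 8 fell in the serum arm (median log2 change -0.12 and -0.22, against 0.01 and 0.00 over all genes tested). Jup, plakoglobin, went from 209 ± 1.96 to 63.1 ± 4.48 CPM (SD, n = 2) in the 2i/LIF arm and from 183 ± 6.90 to 50.5 ± 4.56 CPM in the serum arm. Actn1, an actin cross-linker, fell by 1.07 and 1.01 on the log2 scale (-1.07 ± 0.04 and -1.01 ± 0.04; edgeR adjusted p 3.2e-46 and 8.7e-46). Ctnnd1, the p120 catenin that stabilises cadherins at the membrane, fell by 0.48 and 0.65 (-0.48 ± 0.04 and -0.65 ± 0.04; adjusted p 1e-21 and 3.6e-32). Of 5 other classical cadherins tested of 15 listed, 3 rose in each arm and the other two did not pass the test (median 0.66 and 0.89). Cdh10 went from 0.0759 ± 0.107 to 12.3 ± 1.5 CPM in the 2i/LIF arm and from 0.0735 ± 0.104 to 11.4 ± 0.616 CPM in the serum arm. Cdh24 rose by 0.66 ± 0.19 (adjusted p 0.0011) and 0.89 ± 0.18 (adjusted p 5.5e-06), and Cdh15 reached 1.51 ± 0.363 and 1.61 ± 0.454 CPM.

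Of 22 tight junction and polarity genes tested, 12 were higher and 5 lower at 40 h in the 2i/LIF arm (all genes tested, 34.1% and 34.7%) and 14 higher and 5 lower in the serum arm (35.3% each way), with a median of 0.37 and 0.43. Cgn, the junctional plaque protein cingulin, rose from 5.98 ± 1.64 to 55.2 ± 0.324 CPM in the 2i/LIF arm (log2 3.19 ± 0.14, edgeR adjusted p 4.9e-42) and from 10.9 ± 1.97 to 58.0 ± 2.75 CPM in the serum arm (log2 2.40 ± 0.12, adjusted p 3.3e-39). Magi1, a scaffold of cell junctions, rose by 1.04 ± 0.08 and 1.37 ± 0.07. Llgl2, a polarity gene, fell by 1.03 and 0.35 (-1.03 ± 0.06 and -0.35 ± 0.05). Of 11 desmosome genes and other keratins, 4 were higher and 3 lower in the 2i/LIF arm and 5 higher and 2 lower in the serum arm (median -0.09 and 0.96), which in the 2i/LIF arm is near those shares of all genes. The desmosomal cadherin Dsg2 fell from 189.7 ± 0.443 to 17.8 ± 0.262 CPM in the 2i/LIF arm and from 229 ± 2.02 to 17.1 ± 1.2 CPM in the serum arm (adjusted p 8.9e-73 and 4.2e-83). Dsp, the desmoplakin that ties keratins to desmosomes, fell with it, by 2.27 and 2.21 (-2.27 ± 0.16 and -2.21 ± 0.14), while the plaque protein gene Pkp2 rose by 1.54 ± 0.10 and 1.55 ± 0.10.

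Of 6 partners of EpCAM and surface protease inhibitors tested, 4 fell and 2 rose in the 2i/LIF arm, where 34.7% of all genes tested fell, and 4 fell and 1 rose in the serum arm, where 35.3% fell (median -1.32 and -1.16). Cd9, a tetraspanin that associates with EpCAM, fell from 338 ± 21.5 to 44.0 ± 1.34 CPM in the 2i/LIF arm and from 379 ± 15 to 39.6 ± 1.27 CPM in the serum arm (edgeR adjusted p 1.3e-77 and 8.3e-86). The protease gene St14, whose product matriptase can cleave EpCAM, fell by 1.48 and 1.22 (-1.48 ± 0.08 and -1.22 ± 0.07), and Spint1, an inhibitor of matriptase, by 1.73 and 1.26 (-1.73 ± 0.06 and -1.26 ± 0.06).

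Regulators of epithelial and mesenchymal identity were mixed too. Of 10 epithelial regulators, 4 rose and 5 fell in each arm (median -0.51 and -0.61), beside 34.1% and 35.3% of all genes tested that rose in the 2i/LIF and serum arms and 34.7% and 35.3% that fell. The same shares stand beside the next pair of lists. Esrp1, a splicing factor of epithelial cells, rose from 1.30 ± 0.116 to 84.0 ± 1.52 CPM in the 2i/LIF arm (log2 6.01 ± 0.18, edgeR adjusted p 8.9e-61) and from 1.62 ± 0.207 to 87.4 ± 2.58 CPM in the serum arm (log2 5.74 ± 0.16, adjusted p 6.2e-64). Elf3 and Klf5, transcription factors of epithelia, fell from 323 ± 15 to 12.7 ± 1.10 CPM and from 133 ± 6.07 to 15.3 ± 0.132 CPM in the 2i/LIF arm. In the serum arm, Elf3 fell from 234 ± 7.32 to 14.1 ± 0.589 CPM and Klf5 from 117 ± 9.17 to 20.8 ± 0.811 CPM. Of 8 transcription factors of the epithelial to mesenchymal transition, 4 rose and 3 fell in each arm (median 0.33 and 0.11). Zeb2, an E2-box repressor, rose from 0.745 ± 0.409 to 6.73 ± 1.64 CPM in the 2i/LIF arm and from 0.441 ± 0.415 to 11.8 ± 2.51 CPM in the serum arm (adjusted p 6.7e-12 and 1.2e-22). Snai3 stood at 3.35 ± 0.838 and 4.10 ± 0.180 CPM at 40 h, from 0.248 ± 0.136 and 0.367 ± 0.312 CPM, and Tcf4 fell by 1.08 and 0.25 (-1.08 ± 0.07 and -0.25 ± 0.06). Of 12 mesenchymal effectors, 5 rose and 6 fell in the 2i/LIF arm and 5 rose and 5 fell in the serum arm (median -0.26 and 0.02). Fn1, fibronectin, fell from 2965 ± 9.34 to 787 ± 11.6 CPM in the 2i/LIF arm and from 2650.2 ± 76.0 to 867 ± 27.0 CPM in the serum arm, alongside Vim. The matrix protein gene Sparc fell by 2.30 and 2.31 (-2.30 ± 0.05 and -2.31 ± 0.05), and Lmna, lamin A/C, by 1.93 and 1.88 (-1.93 ± 0.12 and -1.88 ± 0.10). Fn1, Sparc and Lmna were named for their small adjusted p, and they do not stand for the list. Among the 5 that rose in the 2i/LIF arm, Mmp2 went from 2.77 to 19.0 CPM and Des from 2.93 to 10.2 CPM. In the serum arm Mmp2 went from 4.41 to 22.7 CPM and Des from 4.19 to 12.7 CPM.

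**Figure D5:**
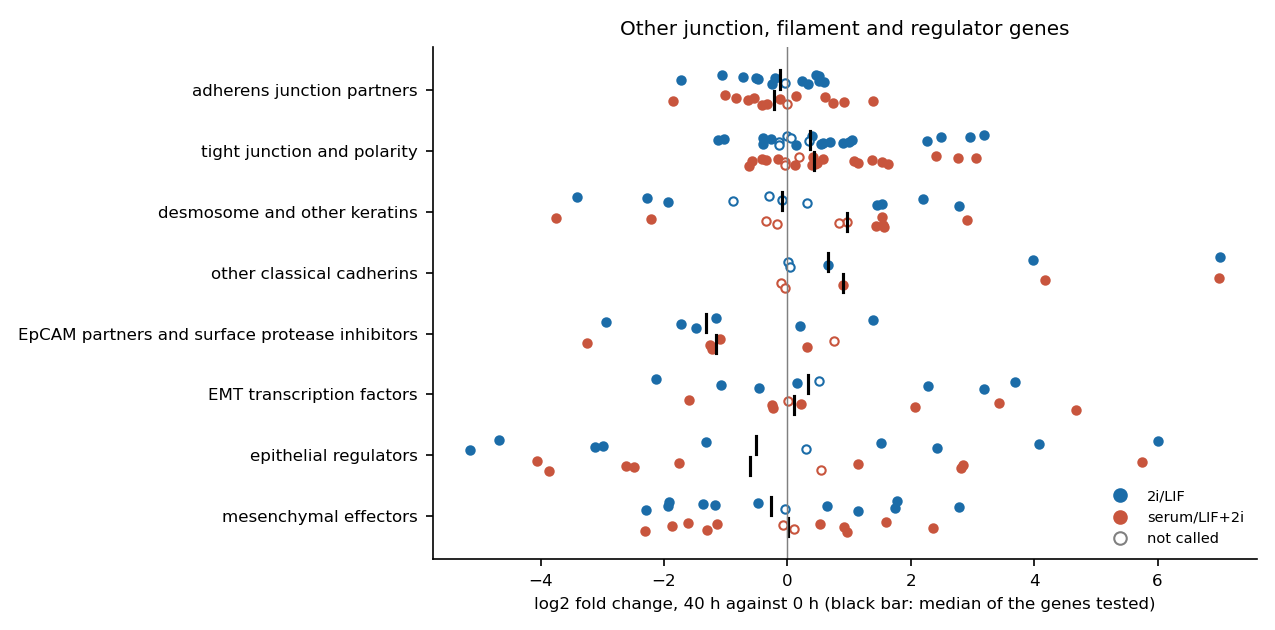
Log2 fold change at 40 h against 0 h (horizontal axis) for the tested genes of 8 lists of partners and regulators (rows), 2i/LIF in blue above serum/LIF+2i in red, with a black bar at the median of each list and open points for genes not past an adjusted p of 0.05. In the serum arm every list holds values on both sides of 0. The medians run from -1.32 for the EpCAM list to 0.66 for the other cadherins in 2i/LIF. In serum/LIF+2i they run from -1.16 for the EpCAM list to 0.96 for the desmosome and other keratins list.

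The genes whose course over the 16 libraries was most like that of each member were read from Pearson correlations of log2 CPM among 10686 genes averaging 5 CPM or more. These are descriptions over libraries that share groups and times. Cdh3 was most like the immediate early gene Arc (r = 0.982) and Exoc3l (r = 0.958): Arc had group means of 14.7, 37.8, 28 and 18.7 CPM over the 4 times in the 2i/LIF arm. Epcam was most like Map1b (r = 0.987) and Rlim (r = 0.986), and 346 genes in all exceeded r = 0.9. Cdh1 was most like Asap2 (r = 0.969) and Nsd2 (r = 0.961), both with the same dip at 12 h: Nsd2 had 110.2, 55.2, 61.7 and 105 CPM in the 2i/LIF arm. Cldn4 was most like Hspb8 (r = 0.969) and Sgk1 (r = 0.965), Cldn6 like Ncbp1 (r = 0.979) and Bub3 (r = 0.942), and Cldn7 like Pphln1 (r = 0.970) and Ube2b (r = 0.968). Krt18 was most like Wdr36 (r = 0.982) and Prag1 (r = 0.973), Krt8 like Got1 (r = 0.970) and Fbxo25 (r = 0.942), and Vim like Robo1 (r = 0.972) and Serpinb9b (r = 0.969). Cdh2 had no gene above r = 0.9, its nearest being Bnip2 (r = 0.899) and Phtf1 (r = 0.890). Among the members themselves, Krt18 and Cldn7 (r = 0.822) were the most alike, and Krt18 and Vim (r = -0.869) and Cdh1 and Cdh3 (r = -0.812) the most opposed, while the keratin partners Krt8 and Krt18 had r = -0.379.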

How the data were processed

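RNA-seq of 16 libraries (8 groups of 2) was analysed from the 1 table that was deposited, which holds whole-number read counts per gene, not normalized, with gene lengths, per the file headers. Per the submitters' processing notes, reads were processed with fastp, STAR and featureCounts on mm10. Per the labels' protocols, TRIzol RNA went into a stranded poly(A) library kit; annotation, versions and strand setting are not given in the sources used here. Of 27179 genes, 1049 had no symbol and 5836 had 0 counts throughout; 0 columns were left without a sample.

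Genes were kept with filterByExpr (minimum count 10, minimum total 15), scaled by TMM and fitted in 1 model with a term per group (8 residual degrees of freedom) using edgeR 4.0.16 in R 4.3.3. The robust quasi-likelihood F test was two-sided over 17 comparisons, each with Benjamini-Hochberg adjustment over 14288 genes. SE was derived from the F statistic. CPM uses TMM-scaled totals, and log2 CPM a prior count of 2. Totals of 5931381 to 11142744 counts set the precision, and the common biological coefficient of variation was 3.19%. Replicate numbers did not pair the libraries. Alternatives were DESeq2 1.42.0, other scalings and filters, a replicate block, only the groups compared, and each library left out. The steps were run on simulated data in which few genes changed, in a single group at a time. Most genes were called at 40 h here, so that run does not cover such a setting.

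The genes, the lists and the rule for named genes were chosen with earlier results of these data known. The rule was all 10 genes, up to 3 per list with the smallest adjusted p in either 40 h exit effect, and for each gene the 2 genes most correlated with it. Close copies (at least 95% identity over 200 bases) were sought in GENCODE transcripts, and promoter motifs were matched by exact letters on both strands in RefSeq promoters. A further promoter sequence is not reported here.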

Additional observations from a re-analysis of the deposited data

Results flagged for a closer look

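The results listed here are those where the change from 0 h differed between the 2 arms by edgeR's interaction test (log2 change in the serum arm minus that in the 2i/LIF arm). Epcam differed at all 3 times, by 0.39 at 12 h, 0.52 at 24 h and 0.43 at 40 h. It started lower in the serum arm and drew level, so the same 0 h libraries enter all 3 values. Vim differed by 0.67 at 12 h and 0.63 at 40 h, and by -0.21 at 24 h. The value at 24 h had an adjusted p of 0.039, lost with DESeq2 (0.22) and without several single libraries, among them replicate 1 of the 2i/LIF arm at 24 h (-0.12, adjusted p 0.38).

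Cdh1 differed by 0.20 at 24 h and 0.23 at 40 h, and the value at 24 h was 0.14 (adjusted p 0.090) without replicate 1 of the 2i/LIF arm at 24 h. Cldn6 differed by -1.15 at 24 h and -1.0 at 40 h. Both Cldn6 and Krt18 were higher in the serum arm at 0 h, and those libraries enter their values here. At 40 h, Krt18 differed by -1.59, Cldn4 by -0.51 and Cdh3 by -0.64, the last of which was -0.31 (adjusted p 0.30) without replicate 2 of the serum arm at 0 h. The base of the exit medium differed between the arms as well, and the 2 cannot be told apart in any of these values.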

How the results depend on the processing

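Each of 122 values (112 where a mean of 5 CPM was required, which removed Cldn7) was recomputed under every alternative. Call and sign were both kept by 107 with DESeq2 (15 calls lost), 120 with DESeq2 size factors (1 call lost, 1 gained), 118 with library size only (0 lost, 1 gained, 3 changes of sign), 120 with no filter beyond 1 count (2 lost), 109 with a mean of at least 5 CPM (1 lost, 1 gained, 1 change of sign) and 120 when only the groups compared were fitted (0 lost, 2 changes of sign). With the replicate block all 122 kept their call: for instance 9 genes were called at 40 h in each arm, as without it. Replicate numbers did not pair the libraries (r of deviations -0.023 to 0.033 over 28 pairs of groups, 0 above 0.1). The count called between arms was 2 with DESeq2 at 24 h and 2 at 40 h, where edgeR gave 5. Over the libraries left out in turn it ran from 2 to 5 at both times, from 4 to 7 for the step from 12 to 24 h in the 2i/LIF arm (lowest without replicate 2 at 24 h) and from 2 to 4 for the interaction at 24 h (lowest without replicate 1 of the 2i/LIF arm at 24 h).

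All changes of sign concerned values that were called neither before nor after. For Cdh1 in the 2i/LIF arm at 40 h, library size only gave 0.000149. For Cdh3 in the serum arm at 40 h it gave 0.0454, a mean of 5 CPM gave 0.0130, and single libraries left out gave -0.306 to 0.301. For the media difference at 40 h, Cdh1 had 0.00791 with library size only and -0.0557 to 0.00488 over libraries left out, Epcam had -0.00621 with only the groups compared and -0.0135 to 0.0198 over libraries, and Vim had -0.00402 and -0.0616 to 0.0672. The interaction of Cdh2 at 40 h ran from -0.145 to 0.373. The log2 change of a ratio from 0 to 40 h crossed 0 over libraries left out for Cdh3 to Cdh1 (-0.450 to 0.124) and Vim to Krt8 (-0.0929 to 0.115) in the serum arm and for Cldn6 to Cldn7 in the 2i/LIF arm (-0.0638 to 0.0198). The cause was not tested. Depth limits Cldn7 at 12 h (4 to 9 counts) and Krt18 in early 2i/LIF (7 to 14 counts).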

Other observations

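Within several families of epithelial and mesenchymal regulators, one relative rose while another fell over 40 h, in both arms. These genes were picked out after their values had been seen, and no test compares the relatives with each other. Grhl2, a Grainyhead factor of epithelia, was at 3.47 CPM at 0 h and 57.4 CPM at 40 h in the 2i/LIF arm (log2 4.08, edgeR adjusted p 1.4e-48), and at 6.32 and 45.4 CPM in the serum arm (log2 2.84, adjusted p 1.6e-40). Its relative Grhl3 was at 21.8 and 2.71 CPM in the 2i/LIF arm (log2 -3.00, adjusted p 1.2e-26) and at 20.7 and 3.40 CPM in the serum arm (log2 -2.61, adjusted p 6.2e-27). Esrp2, the partner of Esrp1 in epithelial splicing, fell from 13.0 to 5.18 CPM in the 2i/LIF arm (adjusted p 2.5e-08) and from 12.2 to 3.57 CPM in the serum arm (adjusted p 6.8e-13), where Esrp1 rose.

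Among the E2-box repressors, Snai1 fell from 6.09 to 1.36 CPM in the 2i/LIF arm (adjusted p 3.8e-08) and from 6.24 to 2.05 CPM in the serum arm (adjusted p 4.1e-07). Zeb1 ended lower at 40 h than at 0 h, whereas Zeb2 ended higher. Zeb1 went from 29.6 ± 7.55 to 21.3 ± 1.04 CPM (SD, n = 2) in the 2i/LIF arm (adjusted p 0.00049). In the serum arm it went from 33.9 ± 3.85 to 28.9 ± 1.07 CPM (adjusted p 0.036). Between these times its means were higher than at 0 h. They were 40.2 and 39.8 CPM at 12 and 24 h in the 2i/LIF arm, and 46.2 and 48.1 CPM in the serum arm. The letters of the E2-box stand in RefSeq promoters both of genes that rose (Epcam, Cldn6, Cldn7, Krt18) and of a gene that fell (Cldn4). For Cldn7, the window just before its GENCODE start had 0 matches. Binding of these repressors and their part in the changes of these genes were not tested.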
